A study of Homo sapiens with 4 samples.

Results

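The promoters described here had an accessibility peak in every library of the series, before and after transformation of a breast epithelial line. They numbered 2700 of 60886 accessible regions. A region was a stretch of overlapping peaks (at least 1 bp, autosomes and X) from the 4 peak lists, and a member had a peak in all 4 lists and overlapped the stretch from 1000 bp before to 500 bp after the start of a protein-coding or long non-coding RNA (lncRNA) gene. The members were thus chosen by measured peaks and their positions, so the presence of the peaks is not a finding. Another 2390 regions with a peak in all 4 lists lay outside such stretches, drawn at 1 start per gene, and are called distal. With the starts of all transcripts 3125 regions would be members, so some of the distal regions lie at other annotated starts.

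The parental control, MCF10A, is a human mammary epithelial line that is immortalized but not transformed. G12V denotes MCF10A cells that received the oncogenic HRAS V12 vector pWZL hygro by viral transduction together with a GFP vector and were then selected with hygromycin. Cells of both kinds were kept in medium with cholera toxin, EGF, insulin, hydrocortisone and horse serum. Each kind was assayed in 2 replicate libraries by ATAC-seq, in which a transposase cuts accessible DNA and tags it for sequencing. The study calls the replicates biological, without saying whether they were separate cultures or transductions, and nothing in the sources used here says whether the G12V cells were a single clone.

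Many vertebrate promoters lie in CpG islands, stretches rich in G and C that have kept their CpG dinucleotides, whereas most of the genome has lost them through methylation and deamination. Island promoters often belong to housekeeping genes, tend to be free of nucleosomes just before the start, and are bound by factors such as SP1, NRF1, ETS proteins, NF-Y and ZBTB33. Promoters of tissue-restricted genes more often lack an island and may carry a TATA box.

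The following stretches show what such promoters look like. Each is the 250 bp before the gene start, read in the direction of the gene from the hg19 genome, and holds no annotated exon. In each of the first 6 the capitals mark the letters of 1 factor's motif, and the gene is the member with the highest lowest score percentile that had those letters in an exon-free stretch, among the chromosomes considered and leaving out genes already shown for another motif. TFB1M (a mitochondrial rRNA methyltransferase, chr6:155635628-155635877, minus strand) shows NRF1. CUL3 (a ubiquitin ligase scaffold, chr2:225450115-225450364, minus strand) shows ZBTB33. MTR (methionine synthase, chr1:236958310-236958559, plus strand) shows ETS. SLAIN2 (a microtubule regulator, chr4:48343296-48343545, plus strand) shows YY1. ZNF672 (a zinc finger protein, chr1:249132159-249132408, plus strand) shows NF-Y. SCYL3 (a kinase-like protein, chr1:169863409-169863658, minus strand) shows the CRE. CPA4 (a carboxypeptidase, chr7:129932724-129932973, plus strand) is shown as the contrast, because its region had the lowest CpG ratio of all members, and its capitals mark AP-1 letters.
TFB1M: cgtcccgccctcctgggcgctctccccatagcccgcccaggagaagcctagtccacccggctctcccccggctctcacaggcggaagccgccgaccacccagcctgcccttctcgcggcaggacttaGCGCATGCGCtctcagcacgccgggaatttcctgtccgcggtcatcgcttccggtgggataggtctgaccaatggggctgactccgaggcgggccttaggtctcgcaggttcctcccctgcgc
CUL3: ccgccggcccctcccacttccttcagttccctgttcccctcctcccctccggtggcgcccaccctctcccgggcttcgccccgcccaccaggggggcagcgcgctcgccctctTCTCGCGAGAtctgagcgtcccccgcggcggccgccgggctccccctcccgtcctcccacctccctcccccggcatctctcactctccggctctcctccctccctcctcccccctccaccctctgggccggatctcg
MTR: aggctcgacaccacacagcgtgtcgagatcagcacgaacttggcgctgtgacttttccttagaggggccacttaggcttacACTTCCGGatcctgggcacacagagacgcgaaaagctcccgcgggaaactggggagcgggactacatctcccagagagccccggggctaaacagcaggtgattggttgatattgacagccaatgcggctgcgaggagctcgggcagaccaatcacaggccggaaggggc
SLAIN2: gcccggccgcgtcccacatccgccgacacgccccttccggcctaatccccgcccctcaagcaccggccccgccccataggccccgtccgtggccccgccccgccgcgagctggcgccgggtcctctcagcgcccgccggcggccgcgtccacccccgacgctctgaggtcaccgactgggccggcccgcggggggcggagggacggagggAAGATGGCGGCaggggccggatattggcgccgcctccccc
ZNF672: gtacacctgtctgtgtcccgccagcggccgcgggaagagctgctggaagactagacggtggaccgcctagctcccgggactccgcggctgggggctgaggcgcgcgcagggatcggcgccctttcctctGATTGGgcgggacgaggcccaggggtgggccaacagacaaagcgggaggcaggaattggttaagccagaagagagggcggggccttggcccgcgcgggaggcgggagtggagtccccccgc
SCYL3: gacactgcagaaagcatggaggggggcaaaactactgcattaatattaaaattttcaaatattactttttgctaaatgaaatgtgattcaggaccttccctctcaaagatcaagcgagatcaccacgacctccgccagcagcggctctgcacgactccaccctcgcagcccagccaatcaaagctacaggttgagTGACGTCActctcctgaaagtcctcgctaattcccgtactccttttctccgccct
CPA4: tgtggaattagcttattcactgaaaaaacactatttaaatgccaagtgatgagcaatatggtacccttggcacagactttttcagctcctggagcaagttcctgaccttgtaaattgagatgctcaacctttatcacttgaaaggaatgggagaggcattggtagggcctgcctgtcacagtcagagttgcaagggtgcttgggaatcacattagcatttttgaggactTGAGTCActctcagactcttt

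The first 5 of these stretches were rich in GC, from 59.6% (MTR) to 79.6% (SLAIN2), and SCYL3 had 48.4%. Their CpG ratio, the count of CpG observed over that given by the content of C and G, lay between 0.725 (MTR and SCYL3) and 0.932 (SLAIN2). The stretch before CPA4 had a GC content of 43.2% and a CpG ratio of 0. The motif letters lay 40 bp (SLAIN2), 55 bp (SCYL3), 121 bp (ZNF672), 137 bp (CUL3) and 169 bp (MTR) before the start, counted to the end of the motif farthest from the start. A match of letters is a description and not a bound site.

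The 4 lists held 12902 and 14057 peaks (replicate 1 of MCF10A and G12V) and 34484 and 46698 peaks (replicate 2), and the number of reads behind them is unknown. Of 2429 promoter regions with a peak in exactly 3 lists, the missing one was MCF10A replicate 1 for 1377 and G12V replicate 1 for 1006, but MCF10A replicate 2 for 31 and G12V replicate 2 for 15. A further 2265 promoter regions had a peak in replicate 2 of both cell types and in neither replicate 1. Without MCF10A replicate 1 there would be 4076 members and without G12V replicate 1, 3705. Regions, genes and libraries of 1 cell line are not independent replicates, so the shares below carry 95% Wilson intervals for counting error alone and were not tested unless a test is named. Gene names and starts are those of GENCODE on hg19. Each gene was given 1 start, the upstream end of its annotated span. Accessibility at another start of the gene counted only if the region overlapped the promoter stretch of that upstream start.

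Members were rich in CpG. Their median GC content was 60.3% (quartiles 56.0 to 64.6%) and their median CpG ratio 0.770 (0.683 to 0.845). Of the 2700, 2028 (75.1%, 73.4 to 76.7%) had a GC content above 55% and a CpG ratio above 0.6, and regions or windows past both limits are called island-like here. Distal regions open in all libraries had a median GC content of 45.8%, a CpG ratio of 0.222 and an island-like share of 10.54% (9.38 to 11.8%). Both kinds of region had passed the same 4 peak calls, and the quartiles of GC content did not overlap.

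Promoter regions with fewer peaks were not poorer in GC. The median GC content was 61.9% for those in 3 lists and 63.1% for those in replicate 2 of both cell types only, with island-like shares of 74.8% each. With a peak in 1 list alone the island-like share was 53.6% (51.9 to 55.3%). Promoter regions called in both G12V lists and neither MCF10A list numbered 251 with an island-like share of 49.8%, and the 120 with the opposite pattern had 55%. Width followed the number of lists: the median was 1330 bp for members (quartiles 1070 to 1664 bp), 1010 bp for 3 lists, 789 bp for replicate 2 of both cell types and 467 bp for 1 list. A merged region can only grow with each peak added, so this order is partly built in.

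At the level of genes, 2885 of 20098 protein-coding genes had a promoter open in all libraries, a background of 14.4% against which each gene class below is read. For lncRNA genes the count was 1047 of 18592 (5.63%). No peak in any list fell on the promoters of 10118 protein-coding genes. Unless single lists are named, a gene's number of lists is the most held by any merged region over its promoter stretch. Some peaks of that region may lie outside the stretch. Composition was taken in a window fixed for every gene, from 250 bp before to 50 bp after the start, so that region width played no part. The share of genes open in all libraries was 2.80% (2.08 to 3.77%) for windows under 40% GC, 14.0% from 50 to 60%, 20.7% (19.7 to 21.7%) from 60 to 70%, 17.3% from 70 to 80% and 9.64% (7.47 to 12.4%) above 80%. The share thus peaked at intermediate GC content, and the windows richest in GC were open in all libraries less often than those between 60 and 80%.

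The share of genes with a peak in any list behaved differently at the upper end, with 62.9% from 60 to 70%, 64.9% from 70 to 80% and 52.1% above 80%. The CpG ratio gave an order that did not turn down by more than its interval. The share open in all libraries was 1.09% (0.775 to 1.52%) below a ratio of 0.2, 10.7% from 0.4 to 0.6, 19.1% from 0.6 to 0.8, 22.95% (21.9 to 24.1%) from 0.8 to 1 and 22.3% (20.6 to 24.2%) above 1.

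**Figure D1:**
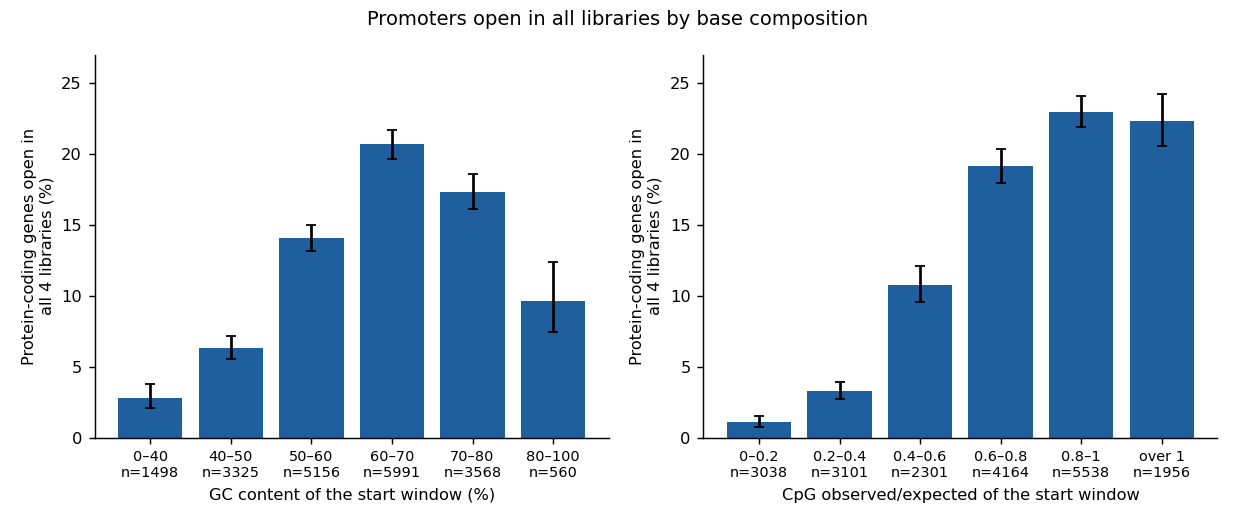
Share of protein-coding genes with a promoter open in all 4 libraries (y, %) by GC content (left) and CpG observed/expected ratio (right) of the window from 250 bp before to 50 bp after the gene start; error bars are 95% Wilson intervals and n is the number of genes. The share reached 20.7% at 60 to 70% GC and was 9.64% above 80%, whereas along the CpG ratio it rose to 22.95% and stayed at 22.3% in the last bin.

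Island-like windows made up 29.0% of genes with no peak, 63.8% with 1 list, 70.8% with 2, 74.5% with 3 and 76.8% (75.2 to 78.3%) of genes open in all 4. Bidirectional promoters, here a gene start within 1000 bp of a start on the opposite strand pointing away from it, followed the same order. They made up 6.37%, 17.7%, 24.2%, 25.6% and 29.7% (28.1 to 31.4%) of protein-coding genes with a peak in 0 to 4 lists. Among lncRNA genes open in all libraries the divergent share was 39.3% (36.3 to 42.2%), against 4.78% of those with no peak.

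Of the 2700 members, 1565 overlapped the promoter stretch of 1 gene, 1031 that of 2 genes and 104 that of 3 or more. A protein-coding start was among them in 2413, and 287 members had lncRNA starts alone. A divergent pair lay in 615 members (22.8%). In 244 of these both genes were protein-coding, as at NUDCD1 and ENY2, and in 371 the partner was an lncRNA, as at CCNG1. The start itself lay inside 2590 members (95.9%).

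Peaks sat on the start in every library. The start base was covered by a peak of MCF10A replicate 1 in 73.3% of the 2885 open genes, of G12V replicate 1 in 75.3%, of MCF10A replicate 2 in 91.8% and of G12V replicate 2 in 93.6%. The median midpoint of the peak lay 7.5 bp before the start in MCF10A replicate 1 and 17.5 bp before it in G12V replicate 1, and 48 bp and 43 bp after it in replicate 2 of the same cell types. In both measures libraries of the same replicate number were closer than libraries of the same cell type. At 1000 bp before the start, coverage was between 3.33% and 12.1% of genes, and at 1000 bp after it between 6.90% and 23.4%, so that in each library the downstream flank was covered more often than the upstream one.

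The members were among the best-scoring peaks. A peak score is 10 times the negative log10 of the peak's p-value and grows with depth, so scores are given as percentiles of their own list (100 is the best peak). The median percentile of the members was 72.9 in MCF10A replicate 1, 92.7 in MCF10A replicate 2, 78.1 in G12V replicate 1 and 94.3 in G12V replicate 2. Distal regions open in all libraries had medians of 62.8, 82.2, 66.1 and 89.3 in the same order, and the other promoter regions of each library 41.1, 55.9, 47.9 and 60.6. In each library the members stood above both classes. A peak found in every list is likely to be a strong one, so that order partly follows from the rule. Of the 1000 best peaks of a list, members held between 58.3% (MCF10A replicate 1) and 69.1% (MCF10A replicate 2), and distal regions open in all libraries between 21.6% and 28.4%.

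**Figure D2:**
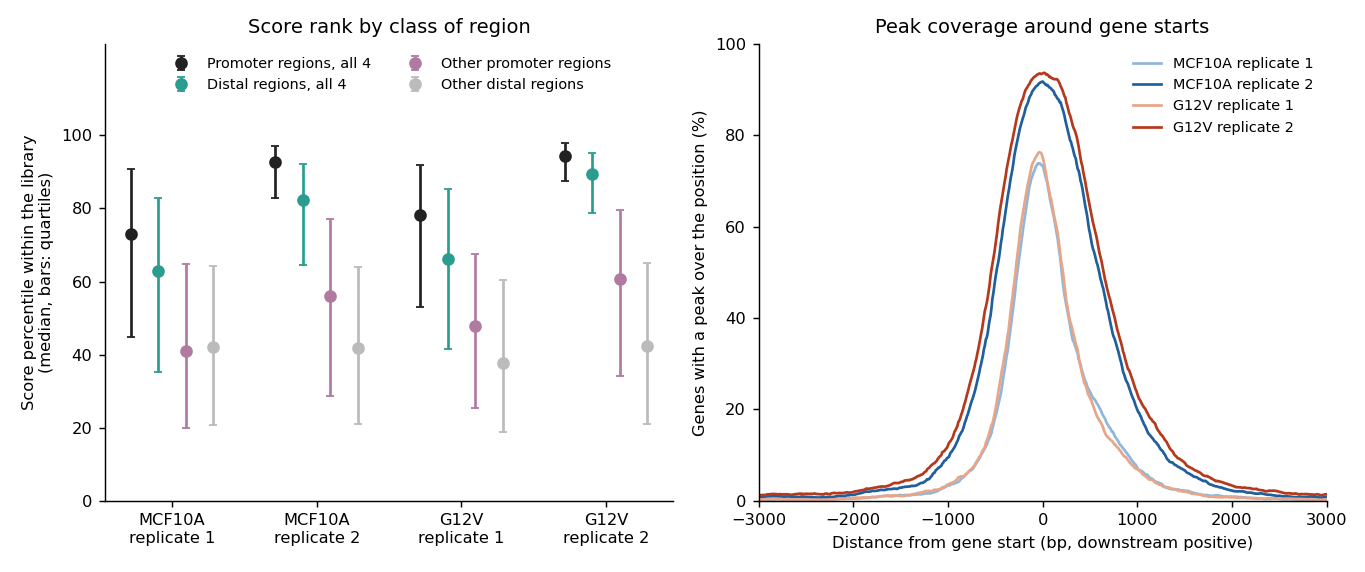
Left, score percentile within each library (points, medians over regions; bars, quartiles) of promoter regions and distal regions open in all 4 libraries and of the library's other promoter and distal regions. Right, percent of the 2885 protein-coding genes open in all libraries with a peak over each distance from the start (bp), 1 line per library. The black points (72.9, 92.7, 78.1 and 94.3) lie highest in each library, and the profiles of the libraries with the same replicate number lie close together, reaching 73.9% and 76.3% in replicate 1 and 91.8% and 93.7% in replicate 2.

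Strength varied widely among the members. The lowest of a member's 4 percentiles was at least 90 in 408 (15.1%), at least 50 in 1561 (57.8%) and below 10 in 192 (7.11%). It fell in MCF10A replicate 1 for 1434 members and in G12V replicate 1 for 1079. In 363 members (13.4%) a score under 50 was recorded in at least 1 library, close to the lowest score in the lists of 40. The order of the members by score was most alike in the replicate 2 libraries (Spearman's rho 0.756 over the 2700 members) and least alike in the replicate 1 libraries (0.463). Within a cell type rho was 0.592 for MCF10A and 0.638 for G12V. Members share their libraries, and these are descriptions.

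The member with the highest lowest percentile was the region at ROCK1P1 (chr18:107352-111747), a lncRNA annotated at a partial copy of the kinase gene ROCK1. Its scores were 686 and 1432 in MCF10A replicates 1 and 2 and 826 and 1500 in G12V replicates 1 and 2, each above the 99.9th percentile. It was also the widest member at 4396 bp and departed from the others in composition, with a GC content of 48.2% and a CpG ratio of 0.137. A copy of another gene can share reads with it, and although the alignment kept uniquely placed reads, the value at this locus is uncertain for that reason.

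After ROCK1P1 came promoters of protein-coding genes. DESI2 (chr1:244815474-244817732) scored 452 and 741 in MCF10A and 510 and 1091 in G12V. At NUDCD1 and ENY2 (the latter a subunit of the SAGA coactivator, chromosome 8) the scores were 445 and 878 in MCF10A and 547 and 1232 in G12V. At ATOX1 and G3BP1, a copper chaperone and a stress granule protein on chromosome 5, they were 447, 969.8, 411 and 1289 in the same order of libraries. All 4 scores of each lay above the 99.8th percentile. ZNF672, ADSS2 (adenylosuccinate synthase), CCNG1 (cyclin G1), FH (fumarate hydratase), TPR with ODR4 (TPR is a nuclear pore basket protein) and MTR completed the list, with lowest percentiles from 99.7 to 99.9. Of the 10 regions 6 lay on chromosome 1, those of DESI2, ZNF672, ADSS2, FH, TPR and MTR. That chromosome held 357 of the 2700 members. After ROCK1P1, the CpG ratios ran from 0.560 (CCNG1) to 0.846 (ATOX1 and G3BP1), and the GC content passed 55% at DESI2, ATOX1 with G3BP1, and ZNF672 alone.

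At the other end were members that barely met the rule. The region of XRCC3 (recombination repair) and ZFYVE21 had a score of 40 in MCF10A replicate 1, the lowest in that list, yet 257 in MCF10A replicate 2, where it stood at the 95.6th percentile, and 50.1 and 196 in G12V. MAF, a leucine zipper transcription factor, scored 40.02 and 103 in MCF10A and 79.9 and 94.2 in G12V. TMEM250 scored 53.9 and 93.4 in MCF10A and 40.1 and 51.1 in G12V, and PACC1, a proton-activated chloride channel, 51.3, 86.6, 40.1 and 148. The shared promoter of SARS2 and MRPS12, a mitochondrial seryl-tRNA synthetase and a mitochondrial ribosomal protein, scored 60.9, 115, 40.1 and 76.3. In each of these 5 the lowest percentile was in a replicate 1 library.

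The position threshold of the rule also cut close in places. The members with the smallest overlap with a promoter stretch were BCL11B (4 bp), GPD1L (12 bp) and KCNK9 (14 bp), and none of these regions covered the start. Just outside were regions open in all libraries that missed the stretch by 19 bp (NFIB-AS1), 34 bp (ENSG00000288018) and 35 bp (LINGO2). The lowest percentiles of the 3 just inside were 60.2, 47.7 and 2.38, and those of the 3 just outside 14.3, 37.6 and 16.8.

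Other wide members were at ST3GAL1 (a sialyltransferase, 4146 bp), NEGR1 (a neuronal adhesion protein, 3714 bp) and FAT4 (an atypical cadherin, 3646 bp). Their CpG ratios lay between 0.664 and 0.775. The members with the lowest CpG ratio were CPA4 (0.0237), CHD9NB (0.0660), ENSG00000287302 (0.0784), MGC32805 (0.0796) and ENSG00000272498 (0.0897), of which CPA4 and CHD9NB are protein-coding and the others lncRNA genes. CPA4 scored 82.8 and 112 in MCF10A and 69.4 and 194 in G12V, with percentiles from 59.0 to 87.1.

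Housekeeping classes were open in all libraries to very different degrees. The lists are gene families or complexes named by symbol, chosen with earlier results of these data known, and counts are of genes. Aminoacyl-tRNA synthetases, which charge tRNAs, had the highest share, with 19 of 37 genes open in all libraries (51.4%, 35.9 to 66.6%), in 18 regions, and 3 with no peak. Against this, 14.4% of all protein-coding genes were open. At LARS1 (leucine) the percentiles were 96.9 and 98.8 in MCF10A and 99.1 and 99.3 in G12V, and at EPRS1 (glutamate and proline) 96.5, 99.1, 94.7 and 99.5. RARS1 (arginine) had 91.3, 93.3, 88.1 and 95.4. HARS1 and HARS2, the cytosolic and mitochondrial histidine enzymes, shared 1 divergent region with 80.7, 96.7, 94.8 and 94.6. LARS1, RARS1, HARS1, HARS2 and TARS1 lie on chromosome 5, which had the highest share of open promoters of any chromosome.

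Genes of DNA and RNA metabolism came next. DNA repair had 19 of 59 genes open in all libraries (32.2%, 21.7 to 44.9%). FANCF, a Fanconi anaemia protein, had percentiles of 95.2 and 99.7 in MCF10A and 92.9 and 99.5 in G12V, and XRCC4 and ATM had lowest percentiles of 88.7 and 88.6. DNA replication factors had 13 of 43 (30.2%), led by MCM9, ORC4, ORC6 and GINS4. Splicing factors had 26 of 86 (30.2%, 21.5 to 40.6%), and HNRNPA0, an RNA-binding protein, reached percentiles of 98.8, 99.5, 97.4 and 99.8 in the same order of libraries, with HNRNPU and SF3B6 also high. Nucleolar and ribosome assembly factors had 11 of 40 (27.5%), led by NOP16, WDR75, NPM1 and WDR12, and Mediator subunits 9 of 33 (27.3%), led by MED19 and MED10. The lower bound of the interval exceeded 14.4% in each of these classes. Their windows were richer in CpG than those of all protein-coding genes, whose median ratio was 0.694. The class medians ran from 0.760 (DNA repair) to 0.916 (splicing factors). Among the 10113 genes with an island-like window, 2216 were open in all libraries. The classes here and below were not compared with that CpG-rich base.

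Chaperones had 26 of 86 genes open in all libraries (30.2%, 21.5 to 40.6%). Those with the highest lowest percentile were DNAJC3 and DNAJB9, cochaperones of the endoplasmic reticulum, with HSPE1, the mitochondrial cochaperonin, and HSPA13. The lowest percentile was 98.3 at DNAJC3, 98.1 at HSPE1, 97.7 at DNAJB9 and 96.7 at HSPA13. Zinc finger genes of the ZNF family had 127 of 526 open (24.1%, 20.7 to 28.0%), in 122 regions, 55 of the genes on chromosome 19, and vesicle transport had 39 of 163 (23.9%, 18.0 to 31.0%), with RAB30, RAB32, COPB2 and SNX14 ahead. In ZNF672, ZNF670, ZNF354B and ZNF189 all 4 percentiles lay above 98. Nuclear pore genes had 10 of 43 (23.3%, 13.2 to 37.7%, an interval that included 14.4%), led by KPNA4, NUP37, NUP98 and IPO11.

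The interval also included the background of 14.4% in the following classes. RNA polymerase II and general factors had 13 of 59 (22.03%), where GTF2E1 led and TBP, the TATA-binding protein, shared a region with the proteasome gene PSMB1. The respiratory chain had 22 of 105 (21.0%, 14.3 to 29.7%), led by COX20, NDUFA4, COX11 and ATP5PF. Translation factors had 14 of 71 (19.7%), led by EIF3E, EIF2AK3, EIF1B and EIF1AX. Mitochondrial ribosomal proteins had 15 of 78 (19.2%), led by MRPL50, MRPS9, MRPL17 and MRPL18, ubiquitin conjugation 19 of 100 (19%), led by CUL3, USP53, CUL2 and USP9X, cyclins and CDKs 7 of 41 (17.1%), led by CDK1, CDK5, CDK13 and CDKN3, and the proteasome 8 of 48 (16.7%), led by PSMB1, PSMD14, PSMD5 and PSMA5.

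Some of the most heavily transcribed housekeeping genes were open in all libraries no more often than genes at large. Cytosolic ribosomal protein genes had 8 of 86 (9.30%, 4.79 to 17.3%). RPS13 had percentiles of 72.0, 86.1, 89.0 and 85.0, and RPL22L1, RPS6 and RPL37 had lowest percentiles of 69.0, 63.5 and 41.5. A further 21 had a peak in 3 lists, 14 in 2, 19 in 1 and 24 in none. With the replicate 2 lists alone the share was 46.5% (36.3 to 57.0%) for ribosomal protein genes against 36.5% for all protein-coding genes, so their order relative to all genes turned with the lists used. Glycolysis had 1 of 17 (5.88%), GPI (glucose-6-phosphate isomerase), with percentiles from 23.9 to 89.2. Replication-dependent histone genes had 2 of 66 (3.03%, 0.835 to 10.4%), the divergent pair H2AC25 and H2BC26 in a single region on chromosome 1, and 32 had no peak in any list.

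Immediate-early genes, which respond to growth factors within minutes, had 5 of 26 open in all libraries (19.2%, 8.51 to 37.9%), and another 9 had a peak in 3 lists. IER5 had percentiles of 76.0 and 61.4 in MCF10A and 78.2 and 92.7 in G12V. The AP-1 subunit gene JUN had 45.4 and 92.9 in MCF10A and 95.8 and 98.1 in G12V, and EGR1, a zinc finger factor, 45.1, 98.6, 94.2 and 98.3. BTG2, an antiproliferative gene, had 42.7, 63.9, 30.0 and 76.1, and DUSP1, a MAP kinase phosphatase, 39.5, 59.8, 22.8 and 84.4. At JUN and EGR1 the low value was in MCF10A replicate 1 alone.

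Genes of other tissues were nearly absent. Of 414 olfactory receptor genes 0 were open in all libraries, which allows a share of up to 0.919% by the Wilson interval, and 409 had no peak in any list. The counts were 0 of 80 neuronal and 0 of 24 liver and muscle genes, 1 of 67 taste receptor and defensin genes (TAS2R14, percentiles from 49.7 to 97.1) and 1 of 17 genes named as crystallins (CRYBG3, percentiles from 90.4 to 97.7). CRYBG3 belongs to the last list by name and is not a lens crystallin. The window GC content of olfactory receptor starts had a median of 38%, against 62.2% for neuronal genes, of which 1 had a peak in 3 lists and 60 in none.

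Markers of the line itself were not members either. With 10 basal and 7 epithelial and luminal markers, the intervals reached 27.8% and 35.4%. Both included the background of 14.4%, so these counts of 0 do not set the markers apart from genes at large. For markers, a peak is listed only where the peak itself overlapped the promoter stretch. Of 10 basal mammary markers 0 were open in all libraries: LAMB3, a laminin chain, had a promoter peak in all but G12V replicate 1, EGFR had one in replicate 2 of both cell types, ITGB4 in both MCF10A libraries, ITGA6 and LAMA3 in G12V replicate 2, KRT17 in MCF10A replicate 1, and KRT5, KRT14 and CDH3 in none. Of 7 epithelial and luminal markers KRT8 had a peak in G12V replicate 2, and CDH1, EPCAM, KRT18, KRT19, GATA3 and ESR1 had none. Of 8 mesenchymal markers 6 had a peak: VIM in all but MCF10A replicate 1, CDH2 in replicate 2 of both cell types, COL1A1, PDGFRA and ZEB1 in MCF10A replicate 2 and FN1 in G12V replicate 2, while COL1A2 and DCN had none. The immune markers PTPRC, CD3E and LYZ and the endothelial markers CDH5 and VWF had no promoter peak in any list. The immune marker CD14 had a peak in replicate 2 of both cell types, and the endothelial KDR in MCF10A replicate 2. Defining epithelial keratins and cadherins thus had few or no peaks in these lists at the upstream start used for each gene. Other starts of these markers were not examined, so peaks at other promoters of these genes may have been missed. HRAS, the transduced gene, had no peak in any library at the start used for its own locus. This does not measure the vector copy or other starts of the gene.

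**Figure D3:**
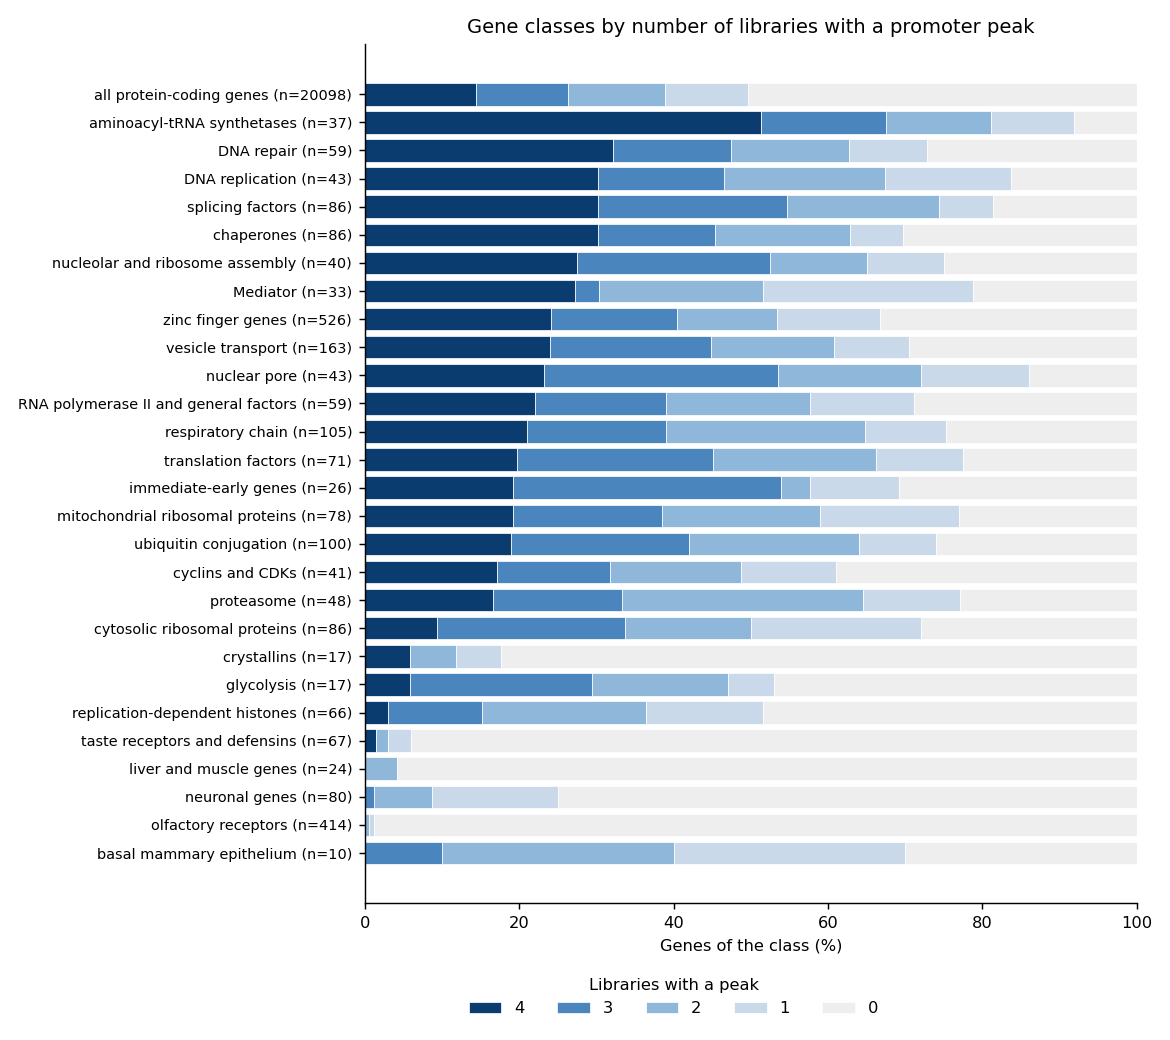
Percent of the genes of each class (x) by the number of libraries, 4 (darkest) to 0 (lightest), with a peak in the merged region over the promoter. The number of genes is n, and classes of at least 10 genes are shown. The darkest part ranges from 51.4% for aminoacyl-tRNA synthetases to 0 for olfactory receptors, neuronal genes, liver and muscle genes and basal mammary markers, beside 14.4% for all protein-coding genes.

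Open promoters were unevenly spread over the genome. The share of protein-coding genes open in all libraries was 27.04% (24.2 to 30.1%) on chromosome 5 and 24.3% (21.4 to 27.5%) on chromosome 4, but 4.04% (3.06 to 5.31%) on chromosome 17 and 0.222% (0.0392 to 1.25%) on chromosome 22, where 1 gene of 450 was open. That gene was RFPL2, with percentiles of 0.961 and 35.2 in MCF10A and 49.1 and 39.4 in G12V. Promoter peaks were not missing from chromosome 22 in the larger lists: 4.67% and 23.8% of its genes had one in MCF10A replicates 1 and 2 and 3.56% and 26.9% in G12V replicates 1 and 2. On chromosome 5 these shares were 32.7%, 52.8%, 35.6% and 56.1%. The ratio between the chromosomes was thus larger in the replicate 1 libraries of both cell types than in replicate 2.

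By chromosome arm, a split added after the chromosome values had been seen, the share was 28.8% on 5q, 28% on 4q, 27.4% on 6q, 27.1% on 10p, 25.9% on 8q and 23.1% on 1q, and 3.88% on 20q, 4.04% on 17q and 0.222% on 22q. DNA copy number, which can raise or lower the reads of an arm, was not analysed here. Among genes with an island-like window the share was 45.3% on 5q and 43.5% on 1q, but 6.30% on 17q and 0.4% on 22q. Distal regions open in all libraries followed a similar order, with 2.70 per Mb on 1q, 2.03 on 5q, 1.38 on 8q, 0.465 on 17q and 0.0567 on 22q (Spearman's rho 0.7 over 41 arms, which share the libraries). Of the 408 members with a lowest percentile of at least 90, 65 lay on 1q and 46 on 5q. Of all 2700 members, 225 lay on 1q and 205 on 5q.

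**Figure D4:**
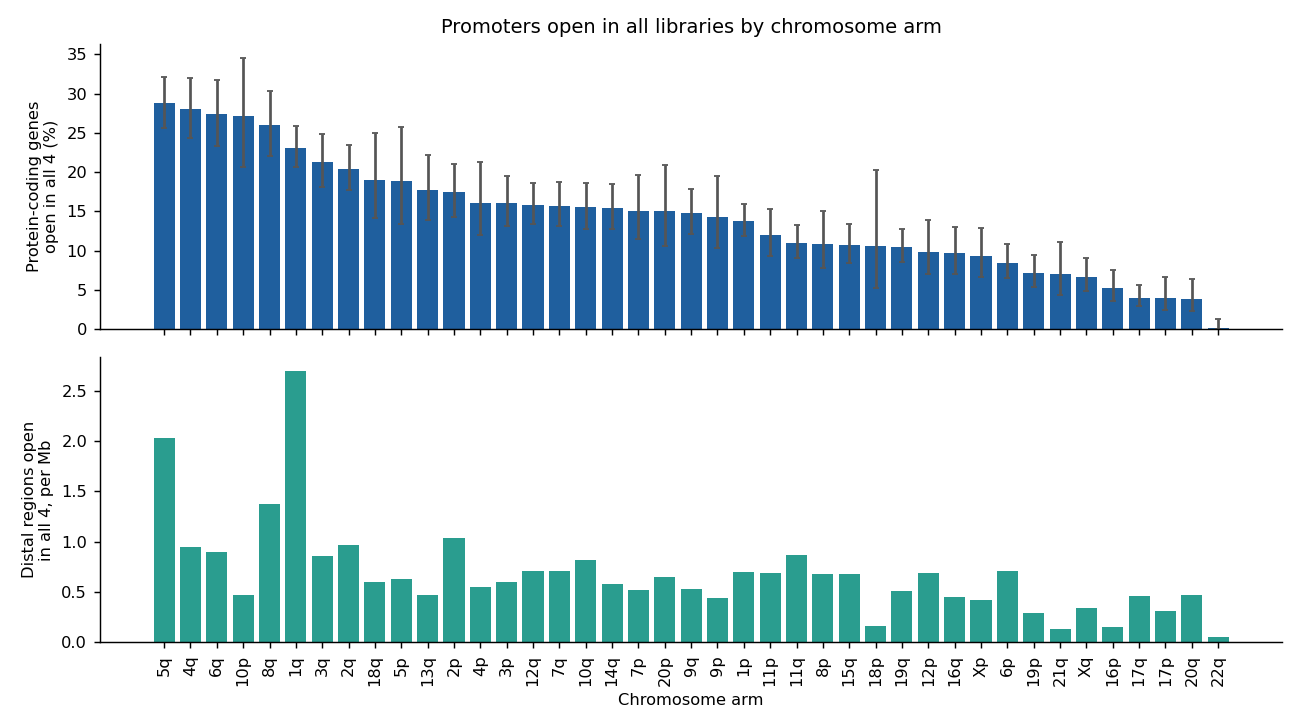
Top, percent of the protein-coding genes of each chromosome arm with a promoter open in all 4 libraries (error bars, 95% Wilson intervals). Bottom, distal regions open in all 4 libraries per Mb of the arm, in the same order of arms. The share falls from 28.8% on 5q to 0.222% on 22q, and 1q and 5q stand out in the lower panel with 2.70 and 2.03 regions per Mb.

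The share of genes open in all libraries was highest with 1 close neighbour and fell with more. Neighbours were other starts of protein-coding or lncRNA genes within 25 kb on either side. With exactly 1 such neighbour the share of protein-coding genes was 19.2% (18.3 to 20.2%), with 2 it was 14.5% and with 3 or 4 it was 10.4%. With 5 or more it was 5.76% (4.70 to 7.04%), while genes with no such neighbour had 13.1%. Among island-like windows the shares from 0 neighbours to 5 or more were 21.8%, 27.5%, 21.4%, 16.0% and 9.30%. The peak caller took its local background from a window of 25000 bp, whereas neighbours were counted up to 25 kb on each side. The part of this setting in the order was not tested. Histone genes had a median of 6 such neighbours, ribosomal protein genes 2 and aminoacyl-tRNA synthetases 1.

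The letters of NF-Y, which binds CCAAT boxes, were more frequent in genes with a peak in more lists. Between 0 lists (21.8 to 23.4%) and 1 list (21.6 to 25.2%) the intervals overlapped. Each motif was sought as exact letters on both strands of the window from 250 bp before to 50 bp after the start, and no motif's letters contained those of another. The NF-Y letters CCAATC or CCAATG were present in 38.0% (36.2 to 39.8%) of the 2885 protein-coding genes open in all libraries, 30.7% of those with a peak in 3 lists, 26.9% with 2, 23.4% with 1 and 22.6% with none. Over all 20098 windows the share was 26.4%. The reversed letters, read backwards without complement as a control for base content, were found in 12.9% and 11.4% of genes with 4 and 0 lists. Reversal keeps the bases but not always the CpG, and the NF-Y letters hold no CpG either way. Among island-like windows alone the NF-Y shares were 39.0% (37.0 to 41.1%) for 4 lists, 31.6% for 3 and 19.7% (18.3 to 21.2%) for none, and those of the reversed letters 11.8%, 10.9% and 7.69%. With the replicate 1 lists alone, the share was 38.6% in genes open in both against 24.5% in the others, and with the replicate 2 lists alone 32.5% against 22.9%. ZNF672, printed above, carries such letters.

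Over all windows, the following motifs were more frequent in genes with a peak in 3 or 4 lists than in genes with none. The ETS letters CCGGAAGT were in 8.56% (7.59 to 9.64%) of genes open in all libraries, 9.20% of those with 3 lists and 1.82% with none, beside 5.08% of all windows and 1.18% for the reversed letters in open genes. The exact NRF1 letters, in capitals in TFB1M above, were in 2.43%, 2.62% and 0.633% of genes with 4, 3 and 0 lists (all windows 1.49%). The ZBTB33 letters, in capitals in CUL3, were in 1.25%, 1.17% and 0.148% (all windows 0.552%). YY1, in capitals in SLAIN2, was in 1.32%, 1.67% and 0.336% (all windows 0.916%), CRE (TGACGTCA) in 3.36%, 3.16% and 1.49% (2.29%), the E-box (CACGTG) in 9.15%, 10.49% and 6.91% (8.33%) and ZNF143 (ACTACAA) in 4.64%, 3.75% and 2.24% (3.11%). In each of these the intervals of the 3-list and 4-list genes overlapped. Among island-like windows alone the shares with 4 and 0 lists were 9.25% and 4.53% for ETS, 2.89% and 1.74% for NRF1, 1.53% and 0.306% for ZBTB33 and 4.33% and 2.01% for ZNF143. The intervals for 4 and 0 lists overlapped there for YY1 (1.399% and 0.953%), CRE (3.75% and 3.23%) and the E-box (10.2% and 10.01%).

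For SP1 and KLF factors (GGGCGG) the share was 71.9% of open genes and 52.2% of all windows, and the reversed letters gave 71.4% of open genes. Here the reversed letters (GGCGGG) overlap the motif, since both lie in the stretch GGGCGGG. They are thus no separate control, and the near-equal shares cannot tell the motif from composition. The TATA letters (TATAAA) were in 5.03% (4.29 to 5.88%) of open genes, 15.5% of genes with no peak and 10.9% of all windows, and the reversed letters gave 6.83% in open genes and 14.9% in genes with no peak. The AP-1 letters (TGACTCA, the reverse complement being TGAGTCA) were in 2.36% (1.86 to 2.98%) of open genes and 4.49% of genes with no peak (all windows 3.98%), with 2.60% for the reversed letters in open genes. Among island-like windows the shares with 4 and 0 lists were 2.57% and 4.87% for TATA, and 1.58% and 1.396% for AP-1. The reversed letters there gave 3.84% and 2.69% for TATA, the opposite order, and 1.76% and 1.67% for AP-1. CPA4 was thus 1 of 68 open genes with AP-1 letters at the start.

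**Figure D5:**
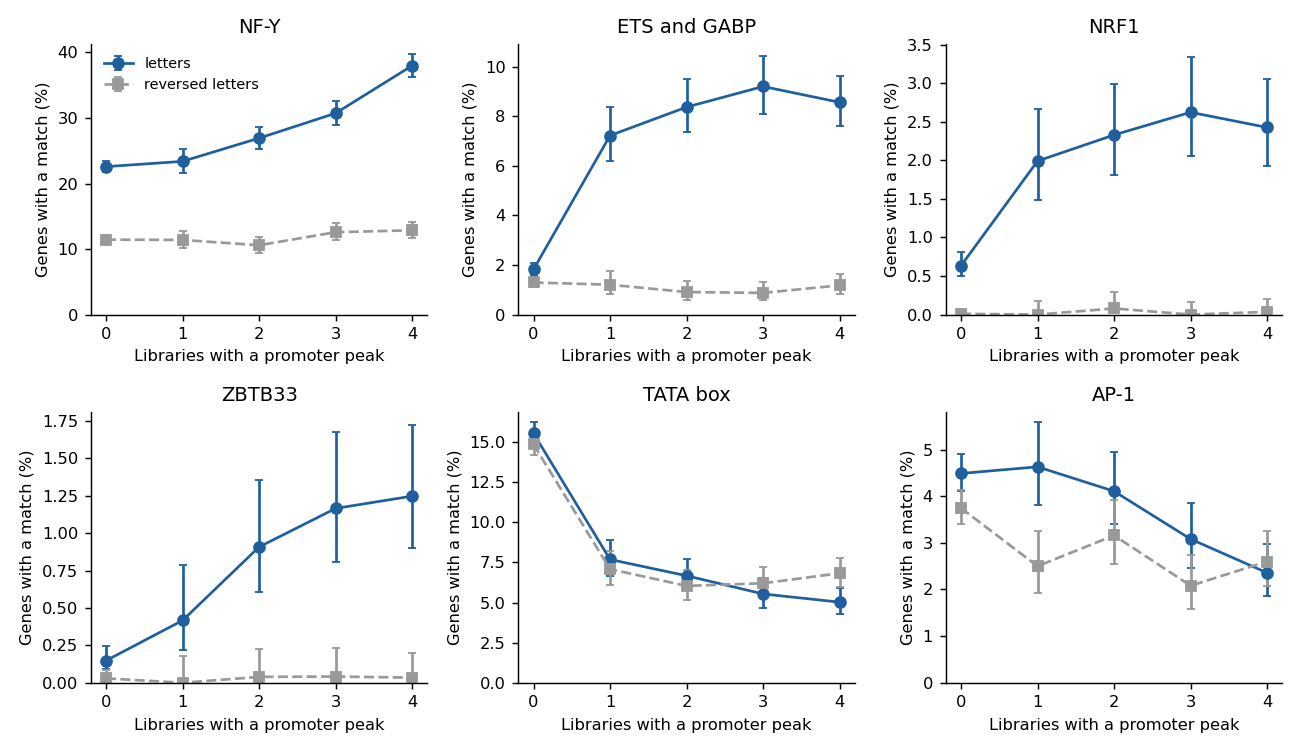
Percent of protein-coding genes (y) whose window holds the letters of a motif (blue) or the same letters reversed (grey). For ETS, NRF1 and ZBTB33 the reversed letters differ from the motif in their number of CpG. The window runs from 250 bp before to 50 bp after the start. Genes are grouped by the number of libraries with a peak in the merged region over the promoter (x). Error bars are 95% Wilson intervals and each panel has its own y axis from 0. NF-Y rises to 38.0% at 4 libraries while its reversed letters stay near 12.9%, and the TATA box and AP-1 fall with the reversed letters.

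Whether the members differed in strength between G12V and MCF10A was asked over libraries. For G12V the mean of the library medians was 86.2 ± 11.4 percentile points, and for MCF10A it was 82.8 ± 14.0 (SD over n = 2 libraries). The difference of 3.44 points lay within the replicate spread, with p = 0.667 by an exact permutation test over libraries (two-sided), in which p cannot fall below 0.333. The median peak width was 533 and 1165 bp in G12V replicates 1 and 2 and 502 and 1038 bp in MCF10A replicates 1 and 2, and the difference of the means of 79 bp was likewise within the spread (p = 0.667 by the same exact permutation test). Both differences changed sign when MCF10A replicate 1 (to -6.43 points and -189 bp) or G12V replicate 2 (to -4.64 points and -237 bp) was left out.

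Region by region, the rank of the score among the 5090 regions open in all libraries was turned into a normal score within each library and compared with limma. After Benjamini-Hochberg adjustment 0 of the 5090 regions (0.0%), and so 0 of the 2700 members, differed between G12V and MCF10A at 0.05. Without adjustment 129 members were under 0.05, beside 346 of all 5090 regions. Regions closed in a library cannot be members, so large losses and gains are absent by construction. Members in which both G12V ranks stood above both MCF10A ranks numbered 464 (17.2%, against 18.7% of all regions open in all libraries), and those with both below 527 (19.5%, against 18.6%). These shares lie near the background. The differences of the members, in units of the normal score, had a median of -0.02 with 5% below -1.09 and 5% above 1.06, beside a median standard error of 0.56.

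Members with small unadjusted p are given as values, none past the threshold (limma adjusted p = 0.724 each). At ATP5MC3, a subunit of the mitochondrial ATP synthase (chr2:176045509-176046862), the scores were 42.05 and 44.05 in MCF10A and 114 and 274 in G12V, that is percentiles of 2.83 and 6.54 against 89.1 and 93.3 (difference 2.78 ± 0.54 SE in normal score). The cell types did not overlap there. MIR3142HG (a microRNA host gene) scored 45.7 and 84.3 in MCF10A and 138 and 270 in G12V, LINC01778 45.6 and 68.4 against 85.4 and 314, and PDCD4 (a translation inhibitor) 57.9 and 77.0 against 140 and 358. In the opposite direction SCAF4, an RNA polymerase II termination factor, scored 96.4 and 297 in MCF10A and 50.3 and 96.5 in G12V (difference -2.09 ± 0.53 SE in normal score). ENSG00000267345 scored 154 and 356 against 57.2 and 223, ZNF718 143 and 215 against 62.8 and 85.2, TMEM250 53.9 and 93.4 against 40.1 and 51.1, and the desmosomal plakophilin PKP2 114 and 156 against 45.7 and 112. Raw scores are larger in the larger lists, and the test used ranks.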

How the data were processed

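ATAC-seq peak lists of 2 MCF10A and 2 G12V libraries were used, grouped by their labels. As the methods state, the authors aligned reads to hg19 with bowtie (0.12.9), kept unique reads, shifted read starts for the transposase, and called peaks with MACS (1.4.2) with no shifting model (tag size 51, shift size 75, 25000 bp for the local background, p = 0.0001). The deposited score of each peak is 10 times the negative log10 of its p-value, rises with depth, and was used as a percentile of its list. Read numbers are unknown.

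Peaks overlapping by 1 bp on the 22 autosomes and X were merged. Gene starts came from GENCODE release 44 on hg19 (20098 protein-coding, 18592 lncRNA genes), and 0 peaks passed a chromosome end. Composition and sequences were read from the GRCh37 genome with pysam (0.24.0). Ranks were compared with limma (3.58.1, R 4.3.3, two-sided, Benjamini-Hochberg, threshold 0.05) without a replicate block, and library medians by exact permutation. Merging, motif search and the rank test were tested on simulated data. Python 3.11.15, numpy 2.4.6, pandas 2.3.3, scipy 1.17.1 and matplotlib 3.10.9 were used.

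The members, gene lists, motifs and markers were chosen with earlier results of these data known. Named were the 10 members with the highest and the 5 with the lowest value of their lowest percentile, the 5 widest, the 5 with the lowest CpG ratio, 5 members in each direction by the rank test, up to 4 members of each gene class, HRAS and the markers. Printed promoters followed the lowest percentile per motif, leaving out chromosome 8 and stretches with an exon. The 3 members nearest the edge of the promoter stretch on each side, the arms, RFPL2, TARS1, HARS2 and genes named only for a shared region were chosen after their values were seen. P-values measure the spread between these libraries, which may be technical. Some items named by these rules are not reported here.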

Additional observations from a re-analysis of the deposited data

How the results depend on the processing

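Keeping the better-scoring 50% of each list left 1560 members, 8.56% of protein-coding genes and a promoter share of 60.6% among regions open in all libraries, against 2700, 14.4% and 53.0%. An equal number of best-scoring peaks per list gave 12.5% of genes and a promoter share of 59.1%. Starts of all transcripts gave 16.8% and 61.4%, and protein-coding genes only a promoter share of 47.4%. Leaving out 1 library gave 2671 to 4076 members (4076 without MCF10A replicate 1), 14.1 to 21.2% of genes, promoter shares of 44.8 to 52.2% and a median GC content of 60.8 to 61.6%.

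Leaving out 1 library, the G12V minus MCF10A difference ran from -6.43 to 13.3 percentile points (-6.43 without MCF10A replicate 1 and -4.64 without G12V replicate 2) and from -237 to 395 bp (-189 and -237 bp in the same order). It kept its sign under the other alternatives. The rank test called 0 to 2 regions, the 2 without G12V replicate 1, and 1 with logit percentiles, none of them members. With 1 library of a cell type, that library was assumed to vary like the other cell type. With a replicate block it called 6, of which 1 was a member (ATP5MC3, limma adjusted p = 0.00912). Same-numbered samples had a correlation of deviations of 0.175, and with 2 pairs they share only a number. The cause of these shifts was not tested.

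The lists used, an alternative chosen after seeing the data, set the level of openness. With the replicate 2 lists alone 36.5% of protein-coding genes were open in both, with 81.1% of aminoacyl-tRNA synthetases, 49.9% of chromosome 5 genes and 14.4% of chromosome 22 genes. The read depth behind each list is unknown.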
